A study of Mus musculus with 15 samples.

Results

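H3K27Ac, acetylation of histone H3 at lysine 27, was compared in pancreatic islets between mice on a high-fat diet with the AMPK activator O304 (HFD-O304) and mice on a regular diet (RD). All peaks of both lists on chromosomes 1 to 19 were taken, and peaks that overlapped by at least 1 bp were joined into a region. This gave 21792 regions, out of a series that holds 111297 peaks in 6 lists. A region with an HFD-O304 peak and no RD peak is called gained, the reverse is called lost, and a region with both is called shared. The words describe the lists and carry no order in time, since the diets were given to different animals.

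The islets came from male CBA mice, were picked by hand and were pooled. About 600 islets went into each immunoprecipitation. RD mice ate standard chow. HFD-O304 mice ate a high-fat feed into which O304, a pan-AMPK activator, was mixed, so they differ from RD mice in both diet and drug, and these cannot be told apart in this comparison. Of the 15 samples of the series 4 belong here, 2 per diet, and the authors merged the replicates before peaks were called. Each diet is therefore 1 list with no replicate check, no test between diets was possible, and intervals below cover counting error only. In pooled islets a larger share of cells with the mark and a higher level per cell cannot be told apart.

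H3K27Ac marks active promoters and enhancers. It is written by the acetyltransferases p300 and CBP and removed by histone deacetylases. In β cells broad stretches of the mark lie over the genes of cell identity and of stimulus-secretion coupling. AMPK is an energy sensor that is activated when the ratio of AMP to ATP rises and that restrains anabolic pathways such as lipid and protein synthesis.

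Depth was close in both lists, with 83773042 fragments kept for RD and 84694188 for HFD-O304. Signal is given as normalised pileup, the mean fragment coverage of a peak over the uniform background of its list, which was 12.1 for RD and 12.2 for HFD-O304. The weakest peaks reached 2.40 times background in RD and 2.37 in HFD-O304. The RD list held 15847 peaks over 17.4 Mb and the HFD-O304 list 19787 peaks over 23.4 Mb on these chromosomes. Peaks of under 10-fold enrichment held an estimated 3.04% of the RD fragments and 4.05% of the HFD-O304 fragments, and 78 and 75 peaks were above that enrichment.

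The tissue label was checked against promoter peaks of marker genes. Of 9 β cell markers 6 had a promoter peak in each list, and Iapp and G6pc2 had none in either. Gcg and Sst, the hormone genes that define α and δ cells, had no peak in either list. No promoter of 13 stellate and fibroblast markers carried a peak in either list, and of 15 acinar markers Bhlha15 carried one in both and Cela3b one in RD. Duct markers had 5 of 11 promoters marked in RD and 7 in HFD-O304. Acetylated bases around the marker genes were 11.4 kb in RD and 12.8 kb in HFD-O304 for acinar cells, and 15.9 and 25.7 kb for duct cells. They were 8.89 and 14.2 kb for endothelial cells and 10.1 and 16.5 kb for macrophages and leukocytes. Part of the larger extent in HFD-O304 thus lay at markers of other cell types, and their part in the results below was not tested.

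Reference sequence (RefSeq GRCm38, strain C57BL/6J, while the mice were CBA) is shown for 4 sites, 200 bases each, 5′ to 3′. Slc30a8, the zinc transporter of the insulin granule, is shown as a gained promoter, and Ins1 and Celsr3 as lost promoters. The Slc30a8 bases (chr15:52294863-52295062, plus strand) lie 690 to 491 bases before the start site, inside a gained region. The Ins1 bases (chr19:52264097-52264296, plus strand) end at the start site and lie outside the lost peak, which ran from 248 to 588 bases downstream of it. The Celsr3 bases (chr9:108826120-108826319, plus strand) end at the start site, and 194 of them lie in the lost region. Capitals mark matches on either strand to the 13 motifs searched, each known as a site of islet or general factors. Forkhead factors such as FOXA2 were searched as TGTTTAC, NEUROD1 and its relatives by the E-box CAGATGG, and other bHLH factors by the E-box CAGCTG. Homeobox factors such as PDX1 were searched as TAATTA, MAFA as TGCTGAC, and the RFX factors of islets as GTTGCCA. Receptors of the NR5A and ESRR families were searched as TCAAGGTCA, and the CREB family by its response element TGACGTCA. FOS and JUN, together AP-1, were searched as TGANTCA, ETS family factors as CCGGAAG, and SP family factors by the GC box GGGCGGG. MYC and the clock factors were searched by the E-box CACGTG and GATA family factors as AGATAAG. None of these motifs contains another. In the 3 promoters the NEUROD E-box and the GC box were the ones found.
Slc30a8: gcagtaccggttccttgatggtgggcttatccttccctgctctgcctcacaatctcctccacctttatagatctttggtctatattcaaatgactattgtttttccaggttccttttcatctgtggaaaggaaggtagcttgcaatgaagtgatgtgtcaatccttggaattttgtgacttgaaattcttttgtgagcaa
Ins1: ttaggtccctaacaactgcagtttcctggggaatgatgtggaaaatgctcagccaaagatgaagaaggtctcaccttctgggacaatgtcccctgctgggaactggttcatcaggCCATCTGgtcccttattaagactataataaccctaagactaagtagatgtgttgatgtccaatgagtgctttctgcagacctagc
Celsr3: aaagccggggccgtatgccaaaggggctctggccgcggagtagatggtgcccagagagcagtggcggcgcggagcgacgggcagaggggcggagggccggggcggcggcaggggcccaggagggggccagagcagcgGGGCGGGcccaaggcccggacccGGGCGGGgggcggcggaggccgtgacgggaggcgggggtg
The E-box in Ins1 starts 85 bases before the start site on the minus strand, and 3.11% of 20807 protein-coding genes hold this motif in the 200 bases before their start site. The GC box, held by 27.7% of genes, occurs in Celsr3 at 63 and 40 bases before the start site. The Slc30a8 window held no match. GC content was 41.5% at Slc30a8, 46% at Ins1 and 79.5% at Celsr3.

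The strongest gained region outside promoters, in an intron of Cmas (chr6:142770792-142770991, plus strand), is shown next. Capitals mark 20-base words that occur more than once in the printed bases, and they cover 98 bases.
Cmas intron: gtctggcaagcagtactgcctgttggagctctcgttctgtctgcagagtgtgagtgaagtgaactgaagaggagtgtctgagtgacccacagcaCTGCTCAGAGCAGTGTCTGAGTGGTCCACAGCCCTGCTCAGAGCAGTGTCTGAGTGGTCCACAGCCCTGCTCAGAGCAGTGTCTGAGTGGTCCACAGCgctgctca

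Of the 21792 regions 13541 (62.1%) were shared, 6159 were gained (28.3%) and 2092 were lost (9.6%). Gained regions outnumbered lost ones 2.94 to 1, and on every chromosome, from 25.3% gained on chromosome 16 to 31.9% on chromosome 17. Lost regions ranged from 6.10% on chromosome 11 to 12.8% on chromosome 10. When both lists were cut to 15847 peaks by strength, 3182 regions were gained and 3041 lost, which that step brings close to each other by construction. Gained regions outnumbered lost ones 4.26 to 1 without repeat-rich peaks. With peaks under a −log10 q of 5 taken out of both lists before joining, the ratio was 3.35 to 1. A region gained in that setting may still hold a weaker RD peak. Of the regions gained and lost in the full lists, 602 and 260 reached that level.

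Gained and lost regions were weak and short. Median length was 512 bp for gained, 386 bp for lost and 1194 bp for shared regions. Gained regions lay at a median of 1.07 times, and at the 95th percentile 1.28 times, the lowest level called in RD. For lost regions the median was 1.10 times the lowest level called in HFD-O304. A difference this close to the calling limit does not show that the mark was absent from the other diet. A −log10 q of at least 5 was reached by 602 gained regions (9.77%) and 260 lost regions (12.4%), against 73.1% of shared ones.

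The classes differed in position. Promoters, taken as 1000 bp either side of a start site, held 67.6% of shared, 25.3% of gained (95% Wilson interval 24.2 to 26.4%) and 13.3% of lost regions (11.9 to 14.8%). Introns held 40.3% of gained and 36.3% of lost regions, and intergenic sequence 30.4% and 47.5%. Gained regions lay nearer to shared ones, with 26.9% within 10 kb (25.8 to 28.0%) against 19.1% of lost regions (17.5 to 20.9%). At least 50% of the bases were repeat-masked in 43.7% of lost regions, 16.4% of gained and 11.2% of shared ones. Outside promoters these shares were 50.2%, 21.6% and 34.3%, so that there gained regions were the least repeat-rich. Without repeat-rich peaks 1222 regions were lost and 5211 gained.

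**Figure D1:**
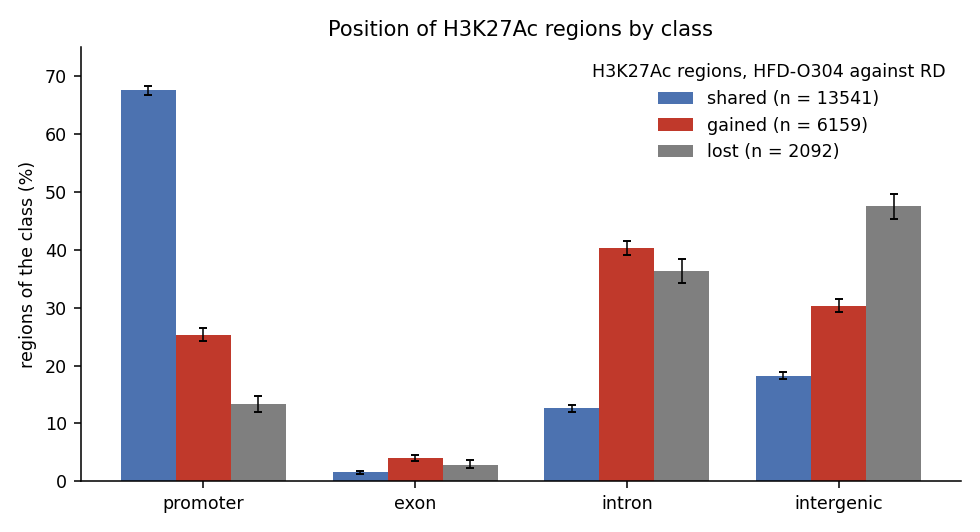
Position of H3K27Ac regions (percent of each class, y axis) at promoters, in exons, in introns and between genes, with 95% Wilson intervals as error bars. Shared regions sit mostly at promoters (67.6%), gained regions most often in introns (40.3%) and lost regions most often between genes (47.5%).

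Other marks and the third diet were read over the same regions. H3K27Me3, the repressive methylation of the same lysine, overlapped 20.3% of gained regions in RD and 20.9% in HFD-O304. For lost regions these shares were 32.3% and 31.2%, and for shared regions 15.7% and 14.5%. The order differed outside promoters, where H3K27Me3 in RD overlapped 40.1% of shared, 22.3% of gained and 34.4% of lost regions. A peak of the HFD list without O304 overlapped 51.1% of gained, 48.1% of lost and 95.98% of shared regions. At promoters this share was 68.4% of gained regions, and outside them 45.3%. The HFD and HFD-O304 lists are both set against the same RD list here.

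Sequence composition followed position. The median 300-base window at a gained promoter region had 63% GC and 19 CpG, against 66.7% and 26 at shared promoter regions. Outside promoters CAGCTG, an E-box bound by bHLH factors, was found in 21.9% of gained windows, 16.0% of shared and 15.1% of lost ones, and in 17.6% of all regions. The NEUROD E-box was found in 8.76%, 7.29% and 7.06% of these windows, and in 5.62% of all regions. AP-1 (TGANTCA) was found in 7.54%, 6.68% and 5.18%, and in 5.13% of all. At promoters the cyclic AMP response element (TGACGTCA) was found in 0.770% of gained, 1.89% of shared and 1.80% of lost windows. It was found in 1.07% of all regions.

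In shared regions the peaks were mostly wider in HFD-O304, and at promoters also slightly higher. The median ratio of normalised pileup, HFD-O304 over RD, was 1.04 (log2 0.06), with 90% of regions between 0.871 and 1.27. The HFD-O304 peak covered more bases in 65.2% of shared regions, and the covered length was 16.3 Mb in RD and 19.1 Mb in HFD-O304. The median width ratio was 1.06 for regions of up to 1 kb, 1.12 for 1 to 3 kb and 1.255 for those over 3 kb. A single HFD-O304 peak joined 2 or more RD peaks in 164 regions, and the reverse held in 61. Pileup was at least 25% higher in HFD-O304 in 815 shared regions (6.02%) and at least 20% lower, the inverse ratio, in 138 (1.02%). At promoters 728 were higher and 44 lower, with a median ratio of 1.06. Outside promoters 87 were higher and 94 lower, with a median of 1.01. Divided by the median ratio, 425 regions were higher and 320 lower. Of the 138 lower regions 81 were repeat-rich.

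**Figure D2:**
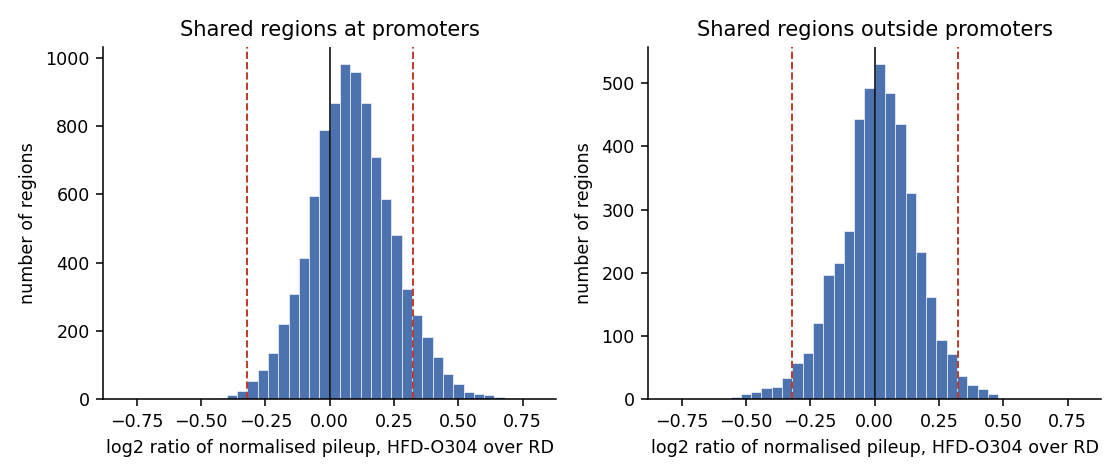
Histograms of the log2 ratio of normalised pileup, HFD-O304 over RD, for shared regions at promoters (left) and outside them (right), with the number of regions on the y axis. Dashed lines mark 25% higher and 20% lower, and the bulk at promoters lies right of 0 with a median of 0.08 on the log2 scale, against 0.02 outside promoters.

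Of 20807 protein-coding genes 11515 had a promoter peak in either list and 9934 in both. A promoter peak was gained by 1348 genes (11.7%) and lost by 233 (2.02%). For 36 of the gained and 9 of the lost genes the region itself was shared, and a peak reached into the promoter window in 1 list only. An HFD peak was also present at 71.3% of gained and 68.2% of lost promoters. Among the 9934 genes marked in both lists 794 were at least 25% higher in HFD-O304 (7.99%) and 48 at least 20% lower (0.483%).

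Glucose sensing and membrane excitation genes, which turn glucose into insulin release, differed most in the extent of the mark. Of 22 genes 15 had a promoter peak in both lists, 4 had gained one, none had lost one and 3 had none. The gained are 4 of the 19 with a peak in either list, against 11.7% over all genes. Acetylated bases in the gene bodies and 20 kb either side came to 81.2 kb in RD and 148 kb in HFD-O304. All 20 loci with peaks in both lists had more in HFD-O304, against 74.5% of 13430 loci over the genome. The median ratio per locus was 1.85, the largest of the 20 functional lists, while the median over all loci was 1.22 with quartiles of 0.998 and 1.64. Short lists of cell type markers reached similar medians, with 1.81 over 8 β cell loci, 1.73 over 6 endothelial loci, 1.9597 over 4 adipocyte loci and 2.152 over 2 α cell loci. Pileup at these promoters differed little, with a median ratio of 1.06 over the 15 genes, 8 of them above 1 and none past 25%. Acetylated bases in the HFD list were 144 kb, with a median ratio to RD of 1.63. Over the 13430 loci the HFD list had a median ratio to RD of 1.26, with more than RD at 77.9%.

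The glucose transporter gene Slc2a2 had RD peaks at positions -2.20 to -1.54 kb and 1.39 to 3.09 kb from its start site. In HFD-O304 these lay at -2.08 to -0.811 kb and 0.502 to 3.51 kb, at 2.73 and 2.72 times background against 2.80 and 2.88. These peaks thus reached closer to the start site at a similar height. The locus also held 2 gained and 2 lost regions, the lost ones at 6.23 to 6.62 kb and 41.3 to 42.5 kb. At Trpm5, a sodium-permeable channel opened by calcium, RD peaks of 2893 and 1669 bp were joined into 1 HFD-O304 peak of 11330 bp. It lay 15.4 to 26.7 kb downstream of the outermost start site of the 25.5 kb gene, at an inner start site. No promoter window of the gene met an HFD peak. The locus held 5.70 kb of acetylated bases in RD, 12.95 kb in HFD-O304 and 9.42 kb in HFD. Slc30a8 had gained a 434 bp peak of 2.54 times background, and Trpm2, a cation channel, one of 586 bp at 2.38. They lay at 1.06 and 0.994 times the lowest level called in RD.

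Loci of the KATP channel and of calcium channels also had more acetylated bases in HFD-O304. Abcc8, the sulfonylurea receptor, had 25.7 kb of acetylated bases in RD and 37.7 kb in HFD-O304. Kcnj11, the channel pore, had 7.66 and 13.9 kb. Since the genes are neighbours, all of these bases are also counted for Abcc8, and the loci are not independent of each other. Values were 6.90 and 12.965 kb at Cacna1c and 4.79 and 10.3 kb at Cacna1d, which encode L-type calcium channels. The potassium channel gene Kcnma1 had 3.66 and 10.7 kb. Atp2a3, a calcium pump of the endoplasmic reticulum, had 4.43 and 10.3 kb. Genes outside those with a gained promoter were named here after their values were seen.

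**Figure D3:**
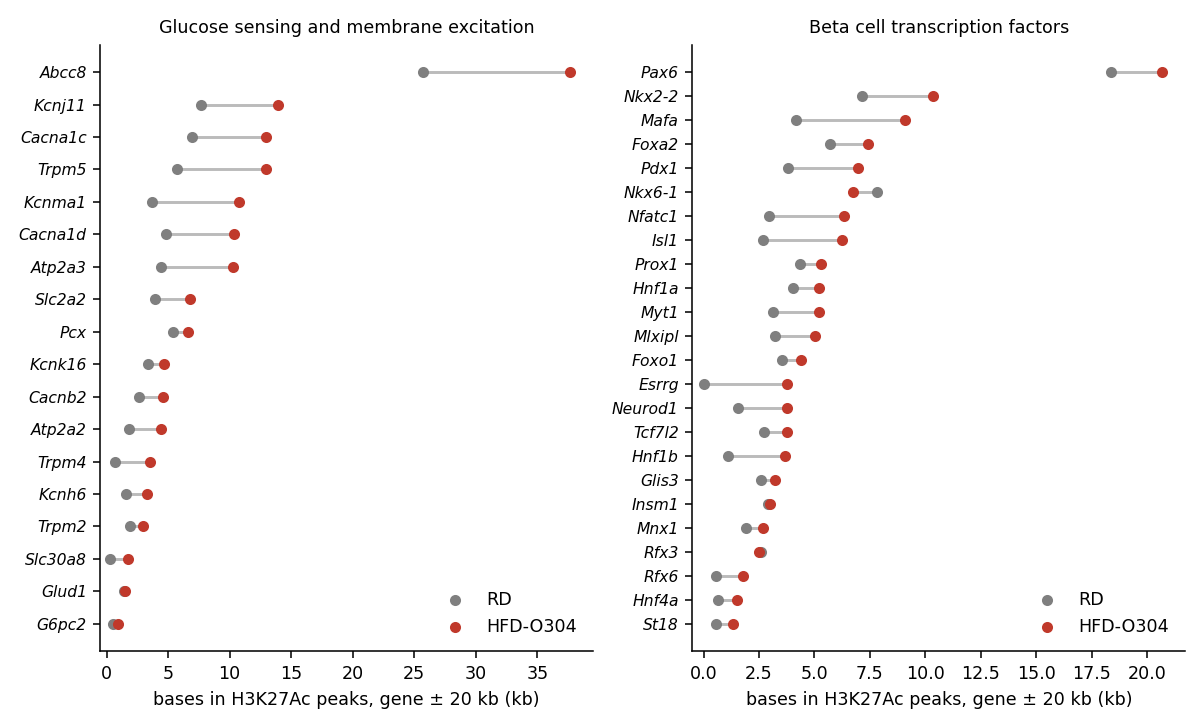
Acetylated bases (kb, x axis) in the gene body and 20 kb either side, in RD (grey) and HFD-O304 (red), 1 gene per row, for glucose sensing and membrane excitation genes (left) and β cell transcription factors (right). All glucose sensing loci shown lie further right in HFD-O304, while Nkx6-1 (7.83 and 6.73 kb) and Rfx3 (2.57 and 2.51 kb) do not.

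Transcription factors of β cell identity came next. Of 26 genes 22 had a promoter peak in both lists, 2 had gained one, none had lost one and 2 had none. The gained are 2 of the 24 with a peak in either list, against 11.7% over all genes. Acetylated bases were 88.1 kb in RD and 130 kb in HFD-O304, with more in HFD-O304 at 21 of 23 loci and a median ratio of 1.44. In the HFD list they came to 122 kb, with a median ratio to RD of 1.52. Pileup at promoters had a median ratio of 1.06 and ranged from 0.846 to 1.20. Neurod1, a bHLH factor needed for insulin transcription, had an RD peak of 1055 bp and an HFD-O304 peak of 3204 bp that reached over the start site, at 2.86 and 2.91 times background. Esrrg, a nuclear receptor of mature β cells, had no peak in RD and 5 gained regions over 3.77 kb in HFD-O304, against 1.18 kb in HFD. Its gained promoter peak, at 2.46 times background, lay at 1.03 times the lowest level called in RD. The promoter carried an H3K27Me3 peak in both RD and HFD-O304. Mafa had 4.17 and 9.09 kb, Isl1 2.67 and 6.24 kb and Pdx1 3.82 and 6.95 kb, named after their values were seen. In the HFD list these were 7.67, 2.36 and 6.48 kb. Isl1 was the one of these in which HFD lay below RD.

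**Figure D4:**
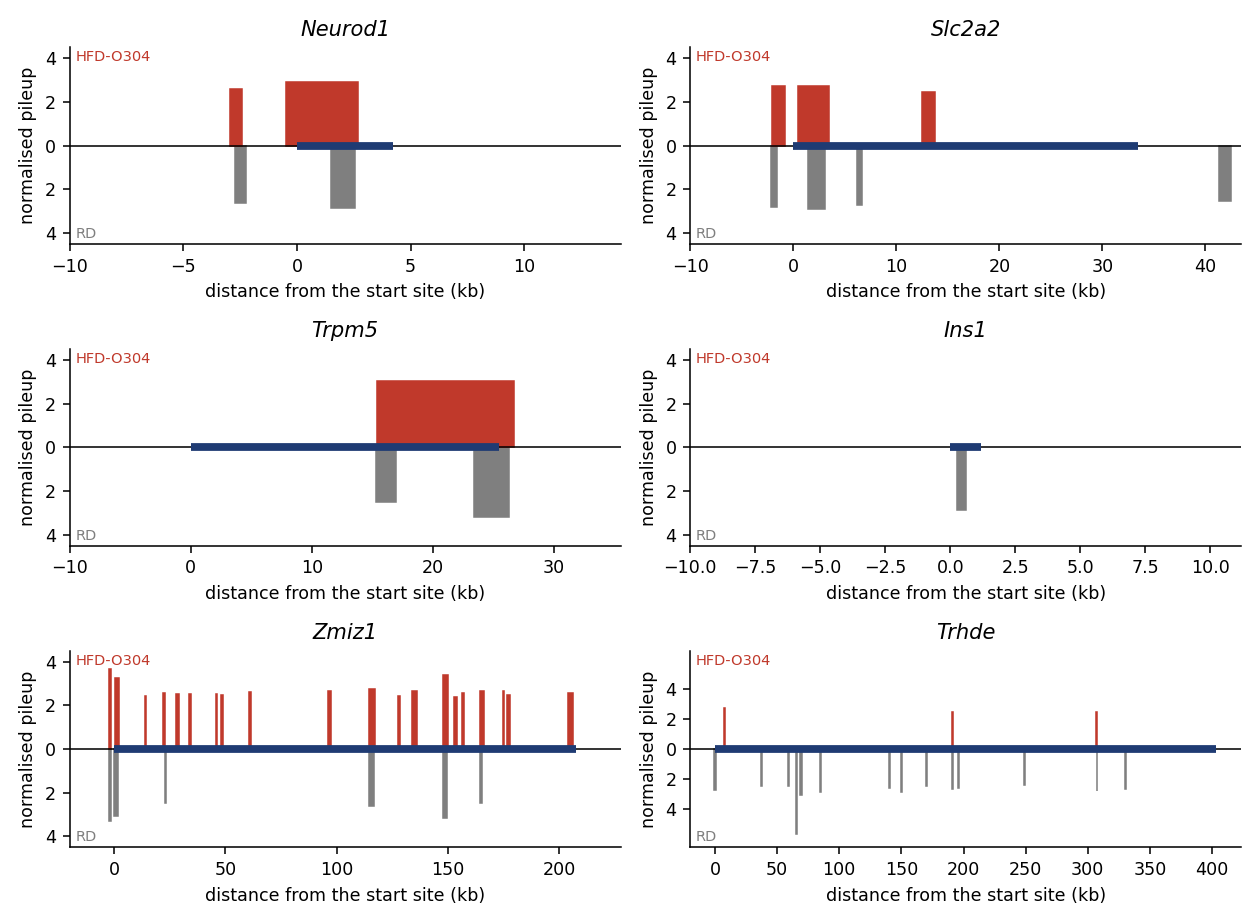
H3K27Ac peaks at 6 loci by distance from the outermost annotated start site (kb, x axis), with normalised pileup upwards for HFD-O304 (red) and downwards for RD (grey) and the gene as a blue bar. Shared peaks at Neurod1, Slc2a2 and Trpm5 are wider in HFD-O304 at similar height, and Slc2a2 also has 2 lost peaks. Ins1 has an RD peak alone, Zmiz1 has more peaks in HFD-O304 and Trhde more in RD.

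Hormone and granule genes differed less uniformly. Of 16 hormone and secretogranin genes 6 were marked in both lists, Npy and Scg2 had gained a promoter peak and Ins1 had lost one. These are 2 and 1 of 9 with a peak in either list, against 11.7% gained and 2.02% lost over all genes. The RD peak at Ins1, 1 of the pair of mouse insulin genes, was 341 bp long at 2.86 times background. It lay at 1.21 times the lowest level called in HFD-O304, and the Ins1 promoter also had an HFD peak. Ins2 had 2579 bp in RD and 1244 bp in HFD-O304, at 2.81 and 2.75. Of 23 genes for granule processing and exocytosis 20 were marked in both and 2 had gained a peak, Slc30a8 and Rab3a, a GTPase of the granule. The gained are 2 of 22 with a peak in either list, against the same 11.7%. Pam, which amidates peptide hormones, had a ratio of 1.32 (counting interval 1.12 to 1.54). The median locus ratio was 1.37 for hormones and 1.20 for granule genes.

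Among 21 receptors that act on secretion 11 were marked in both lists. Gipr (2.74 times background), the fatty acid receptor Ffar4 (3.18) and the dopamine receptor Drd2 (2.46) had gained a promoter peak. Htr1d, a serotonin receptor, had lost one, although its region was shared with 642 bp in RD and 464 bp in HFD-O304. Gained and lost were 3 and 1 of 15 with a peak in either list, against 11.7% and 2.02% over all genes. Glp1r, named after its values were seen, had the widest promoter region of the list, 22966 and 22569 bp, at 3.07 and 3.23 times background. Among 12 transcription factors of α cells, δ cells and progenitors 3 were marked in both, and Meis1 was among those that had gained a peak. Those were 2 of 5 with a peak in either list.

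Among genes of AMPK signalling few promoters were at least 25% higher, and extent differed less than over all loci. Of 22 genes for AMPK subunits and regulators 21 were marked in both lists and none had gained or lost a promoter peak. The median locus ratio was 1.07, below the genome median of 1.22, and the median pileup ratio was 1.09 with 17 of 21 above 1. Over the 9934 genes marked in both lists the median pileup ratio was 1.06, so most of those promoters also lay above 1. More than 25% higher were Cab39, the scaffold of the LKB1 complex, at 3.21 in RD and 4.37 in HFD-O304 (ratio 1.36, 1.10 to 1.67), Sesn2, a stress sensor that restrains mTORC1, at 3.20 and 4.24 (1.33, 1.06 to 1.66), and Prkaa2, the α2 catalytic subunit, at 2.73 and 3.52 (1.29, 1.04 to 1.59). Prkaa1, the α1 subunit, had 3.88 and 3.36 (0.867, 0.680 to 1.11). These 3 of 21 genes compare with 7.99% of all promoters. Of 29 effectors in energy metabolism 25 were marked in both, and Mtor was higher, at 2.87 and 4.13 (1.44, 1.10 to 1.87). It was 1 of 25 at least 25% higher, against the same 7.99% of all promoters.

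For lipid and cholesterol synthesis 20 of 24 genes were marked in both lists, and Scd2, a fatty acid desaturase, and Fdps, of the mevalonate pathway, had gained a peak. The gained are 2 of 22 with a peak in either list, against 11.7% over all genes. Lpin2, a phosphatidate phosphatase, had a ratio of 1.55 (1.23 to 1.964), Dgat1, of triglyceride synthesis, 1.34 and Gpam, of the first step of glycerolipid synthesis, 1.26. All 25 genes of the unfolded protein response were marked in both lists. Edem1, which directs misfolded glycoproteins to degradation, was higher at 3.04 and 4.504 (1.48, 1.23 to 1.78) and Eif2ak3, the kinase PERK, at 3.93 and 5.08 (1.29, 1.10 to 1.51). Dnajc3, an inhibitor of that kinase, was lower at 4.74 and 3.52 (0.743, 0.623 to 0.887). The members at least 25% higher were 3 of 20 for lipid synthesis and 2 of 25 for the unfolded protein response, against 7.99% of all promoters. At least 20% lower was 1 of 25 for the unfolded protein response, against 0.483% of all promoters. Intervals are counting intervals of the merged fragments.

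Writers, erasers and readers of H3K27 marks were all marked, 18 of 20 in both lists. Suz12, a subunit of the complex that methylates H3K27, had a ratio of 1.33 (1.09 to 1.63). Kdm6b, an H3K27 demethylase, had gained a 1839 bp peak at 3.20 times background, and Hdac9 one of 917 bp at 2.51. The gained are 2 of 20, against 11.7% over all genes.

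Over all genes with a promoter peak in either list 11.7% had gained and 2.02% had lost it, and the lists below are read against these shares. For cell cycle genes 14 of 24 were marked in both, and Ccnd1, Cdkn1c, Mki67 and Mcm2 had gained a peak, 4 of 18 with one in either list. Among 22 genes disallowed in β cells, which mature β cells keep silent, 10 were marked in both, Cxcl12, Igfbp4, Acot7 and Parp3 had gained a peak and Oat had lost one, 4 and 1 of 15. Among antioxidant genes Txnrd2, Prdx3 and Gpx3 had gained a peak, 3 of 16. Among neuronal and adhesion genes Slit2, Efna5 and Epha7 had gained one and Celsr3 had lost one, 3 and 1 of 16. Among 20 genes of insulin and FoxO signalling Grb10 had gained a peak, and the insulin-responsive kinase gene Pdpk1 had a ratio of 1.255 (1.06 to 1.48). In glycolysis 17 of 19 genes were marked in both, with Pfkm at 1.254 (0.980 to 1.61) and Tpi1 at 0.791 (0.637 to 0.983). Higher members were 1 of 17 for insulin signalling and 1 of 17 for glycolysis, against 7.99% of all promoters. Lower members were 1 of 17 for glycolysis, against 0.483%. Dedifferentiation genes (9 of 16), immediate early genes (18 of 20) and clock genes (18 of 18) were marked in both, with no promoter gained, lost, 25% higher or 20% lower. Their median locus ratios were 1.01, 1.16 and 1.18.

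**Figure D5:**
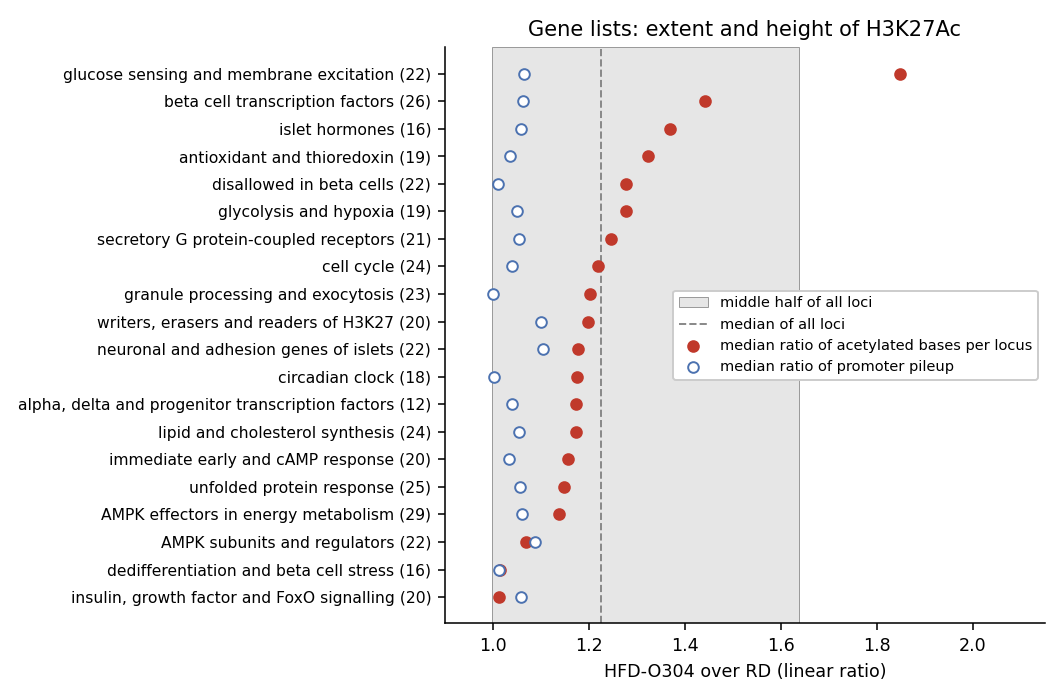
Median ratios, HFD-O304 over RD (x axis, linear), for 20 gene lists with the number of genes in brackets, as acetylated bases per locus (red) and promoter pileup (open blue). The grey band spans the quartiles of all loci (0.998 to 1.64) and the dashed line their median (1.22), and glucose sensing genes alone lie right of the band, at 1.85.

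Over all genes, the gained promoters with the strongest peaks were those of Xylt2, a xylosyltransferase (4.38 times background), Usp25 (4.16), Bod1 (4.17), Ttc21b (4.10), Ndufc1 (4.07), Copg2 (4.11), Sufu (4.02) and the shared promoter of Nt5c3b and Klhl10 (3.92). All 8 also had an HFD peak. The strongest lost promoters were Gcat, Zfyve1 (3.49), Zfp770 (3.37), Clp1 (3.33), Hacd2 (3.29), Rpa2 (3.21), Pycrl (3.22) and Hltf (3.22). Gcat lay at the edge of a shared region that covered 3662 bp in RD and 1512 bp in HFD-O304, and Pycrl alone of the 8 had no HFD peak. Among the highest ratios were those of Rasa2 (1.61), Crebzf (1.60), Kif1b (1.51), Edem1 (1.48) and Pou2f1 (1.47). Among the lowest, beside Dnajc3, were those of Cd82 (0.767), Ergic2 (0.779), Wbp11 with BC049715 (0.780) and Dhx32 with Fank1 (0.802).

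Among regions outside promoters with under 50% repeat-masked bases and no H3K27Me3 peak, the strongest gained regions lay in introns of Cmas (7.97 times background) and Atp2c1 (4.26), near Zfp637 (4.23), in Sirpa (3.92) and near Cdh4 (3.54). The strongest lost regions under the same limits lay in introns of Kcnh1 (10.6), Msl2 (7.86), Wbp11 (3.54) and Iqgap1 (3.39) and near Tomm7 (3.47). They were 273 to 485 bp long, near the fragment size of 270 bp. In 8 of these 10 regions repeated 20-base words made up 15.7 to 92.9% of the words of the central window, the exceptions being those near Zfp637 and in Iqgap1. Of all regions outside promoters 16.5% of gained, 24.0% of lost and 20.8% of shared ones had at least 10% of such words. Among those with a −log10 q of at least 10 this held for 7 of 17 gained, 5 of 25 lost and 182 of 714 shared regions.

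Some genes held many gained or lost regions. Gse1 had 22 gained and no lost regions, with 28.9 kb acetylated in RD and 61.3 kb in HFD-O304, and 13 of the 22 overlapped an HFD peak. It lies within Gm20388, a readthrough model of 4435 kb with 57 gained regions. Msi2, an RNA-binding protein gene, had 17 gained and 2 lost regions (8.35 and 24.9 kb). Zmiz1, a coregulator of transcription, had 14 gained and none lost (7.40 and 26.6 kb), at 2.40 to 2.68 times background. Dnah8, beside Glp1r, had 15 gained and 8 lost regions (81.8 and 104 kb).

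Trhde, which encodes the enzyme that degrades thyrotropin-releasing hormone, went the other way, with 12 lost regions, 1 gained and 2 shared. Acetylated bases were 8.86 kb in RD, 1.61 kb in HFD-O304 and 11.9 kb in HFD. The lost regions, 1 of them at the promoter, reached 2.43 to 5.69 times background in RD, 7 of them were repeat-rich and 4 overlapped an HFD peak. H3K27Me3 overlapped 6 of them in RD and 4 in HFD-O304. Ero1lb, an oxidase of the endoplasmic reticulum that forms disulfides in proinsulin, had 5 lost and 1 gained region (8.68 and 4.99 kb, with 4.41 kb in HFD). C130026I21Rik had 5 lost regions with 14.9 and 14.6 kb, and Nkain2 had 4 with 2.06 and 0.523 kb. All 5 at C130026I21Rik overlapped an HFD peak, and H3K27Me3 in both RD and HFD-O304. All 4 at Nkain2 were repeat-rich, 2 overlapped an HFD peak and 3 overlapped H3K27Me3 in each of RD and HFD-O304.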

How the data were processed

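H3K27Ac chromatin immunoprecipitation was sequenced from islets of RD and HFD-O304 mice. Per the labels and the study's methods, the authors mapped reads to GRCm38 (Ensembl 96) with Bowtie2, merged the 2 replicates of a diet and called broad peaks with MACS (version 2.1.2 in the file headers) against a uniform background. The deposited lists give, per peak, pileup (a fragment coverage signal, not scaled to depth), fold enrichment as a ratio, and p- and q-values as −log10 (the q-values were used here). The q threshold differs between the methods and the file headers, and the lists were used as the authors deposited them. Pileup was divided by kept fragments times fragment size (270 bp) over an effective genome of 1.87e9.

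Peaks on chromosomes 1 to 19 were joined at 1 bp of overlap with Python 3.11.15 and pandas, and on simulated lists this step found every planted gained, lost, shared, higher and lower region. Genes are protein-coding genes of GENCODE M21, and a locus is the gene body and 20 kb either side, with overlapping windows joined for list sums. A region's pileup is the length-weighted mean of its peaks, and its ratio interval is a 95% Poisson interval of estimated fragments. Shares carry 95% Wilson intervals. Fragments of a pooled chromatin sample are not independent animals, so all intervals cover counting error only.

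Members and gene lists were chosen with earlier results of these data known. Per list, up to 6 genes were named, gained or lost promoters first by −log10 q, then promoters at least 25% higher or 20% lower. Over all genes, the 8 strongest gained and lost promoters, the 6 extreme ratios in each direction, the 5 strongest distal regions each way (under 50% repeat-masked, no H3K27Me3) and the 5 genes with most gained or lost regions were named. Of the list genes 12 on X were not used. Alternatives were peak strength, list size, repeats, chromosomes, overlap, promoter window, fold threshold, scaling, summed signal and peak shape, and for 2 gene lists, chosen after seeing the data, list size and repeats. The H3K27Me3 HFD list was not used. Some items that the rule names are not reported here.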

Additional observations from a re-analysis of the deposited data

Results flagged for a closer look

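Peaks on the sex chromosomes were outside the comparison. On X 124 regions were gained and 96 lost of 386, and the median pileup ratio of the 166 shared regions was 1.00. On Y 11 regions were gained and 9 lost of 56. Lost regions were 24.9% of the regions on X, against 9.6% on chromosomes 1 to 19. The series has an input sample for each diet, which the deposited lists do not use as a control. These values have no replicate check.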

How the results depend on the processing

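No paired analysis was possible because each diet has a single list, made from merged replicates. Nor could a replicate be left out. A count is taken to have moved when it changed by over 1.5 times, and a share when it left its 95% Wilson interval. By this measure 26 of 44 values under other settings moved, and the causes were not tested unless stated. With peaks of −log10 q of at least 5 only, 2925 regions were gained and 872 lost, 70.4% and 39.3% of them at promoters. In that setting 2194 and 366 promoters were gained and lost, and 395 and 77 shared regions were higher and lower. Both lists were cut before peaks were joined, so gained and lost there allow a weaker peak in the other list. With both lists cut to 15847 peaks, 3182 regions were gained, 33.2% of them at promoters, 17.0% of lost regions were at promoters, 456 promoters were lost and 965 gained, and gained regions outnumbered lost ones 1.05 to 1 in place of 2.94 to 1, close to equal by construction. Without repeat-rich peaks 1222 regions were lost, 29.7% of gained and 22.7% of lost regions were at promoters, and 57 shared regions were lower. A promoter window of 2000 bp gave 27.4% and 14.9%. Shared regions higher and lower were 35 and 1 at 1.5-fold, 425 and 320 after division by the median ratio, 5814 and 1730 for summed pileup, which counts width as well, and 378 and 61 in peaks that overlapped by 80%. In lists of equal size 19 of 20 glucose sensing loci had more acetylated bases in HFD-O304, with a median ratio of 1.42 against 1.153 over all loci, and 19 of 23 β cell transcription factor loci, with 1.38. Without repeat-rich peaks these were 18 of 19 and 21 of 23. Depth limits the weakest regions, which lie at the calling limit of each list.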
